A study of Mus musculus with 16 samples.

Results

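Prb1, Prpmp5 and Gm4736 are 3 genes of the proline-rich protein family among the 51912 genes of a count table from mouse retinal pigment epithelium. This tissue, abbreviated RPE, is a single sheet of pigmented cells that supports the photoreceptors. The 3 genes were chosen by name for their low levels in the hydroquinone libraries, that is, by the fold change between hydroquinone and untreated libraries in these same counts. The hydroquinone difference of these genes is therefore described here, and edgeR's calls of it do not count as a test. The 16 libraries came from male C57BL/6 mice aged 40 weeks, each library from 1 eye. They form 4 groups of 4 libraries: wild type untreated (2 mice by the library titles), wild type exposed to hydroquinone (4 mice), Sucnr1 knockout untreated (3 mice) and Sucnr1 knockout exposed to hydroquinone (4 mice). Sucnr1 encodes the receptor for succinate, and hydroquinone is an oxidant found in cigarette smoke. The labels do not say how the knockout was made, and the dose, route and duration of exposure are not given in the sources used here. The protocol in the labels gives 4 animals a group, which differs from the 13 mice that the titles name.

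Proline-rich proteins are small secreted proteins built largely of repeated stretches of proline, glutamine and glycine. They are known best from saliva, where acinar cells of the salivary glands secrete them and where they bind dietary tannins. In rodent salivary glands their genes are known to be strongly induced by beta-adrenergic agonists acting through cyclic AMP. They are not among the usual marker genes of the RPE.

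All 3 genes lie on the minus strand of chromosome 6 (GRCm38, GENCODE vM21) within 200.2 kb. Gm4736 (ENSMUSG00000079276) occupies chr6:132114576-132117662, Prb1 (ENSMUSG00000067543) chr6:132206795-132210521 and Prpmp5 (ENSMUSG00000107874) chr6:132311590-132314757. Prb1 and Prpmp5 are annotated as protein-coding, with 4 exons of 1621 bases and 3 exons of 1298 bases in sum. GENCODE calls Gm4736 an unprocessed pseudogene, with 380 exon bases in 4 exons, whereas RefSeq lists the same locus as protein-coding with the synonyms Mp4 and Mp6. The start of Prb1 is 92.9 kb from that of Gm4736 and 104.2 kb from that of Prpmp5, and no other annotated gene overlaps any of them.

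The sequences before their starts are shown because they are almost the same in the 3 genes, all lower in the hydroquinone libraries. They are also almost the same in Gm8882, a neighbouring relative with 0 counts in all 16 libraries. Each line gives the 250 bases before the RefSeq start (GRCm38.p6, minus strand, 5′ to 3′), with a TATAAA match in capitals. They are chr6:132210522-132210771 for Prb1, chr6:132314744-132314993 for Prpmp5, chr6:132117691-132117940 for Gm4736 and chr6:132364135-132364384 for Gm8882.
Prb1: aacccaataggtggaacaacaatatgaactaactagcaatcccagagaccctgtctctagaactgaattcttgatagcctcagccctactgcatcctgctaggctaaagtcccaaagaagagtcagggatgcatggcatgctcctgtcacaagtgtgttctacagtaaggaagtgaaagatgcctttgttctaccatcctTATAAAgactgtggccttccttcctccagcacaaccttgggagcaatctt
Prpmp5: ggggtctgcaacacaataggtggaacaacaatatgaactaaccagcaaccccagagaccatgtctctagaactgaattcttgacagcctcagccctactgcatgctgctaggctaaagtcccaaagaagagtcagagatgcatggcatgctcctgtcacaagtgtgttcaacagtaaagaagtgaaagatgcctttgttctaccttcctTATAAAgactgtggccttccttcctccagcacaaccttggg
Gm4736: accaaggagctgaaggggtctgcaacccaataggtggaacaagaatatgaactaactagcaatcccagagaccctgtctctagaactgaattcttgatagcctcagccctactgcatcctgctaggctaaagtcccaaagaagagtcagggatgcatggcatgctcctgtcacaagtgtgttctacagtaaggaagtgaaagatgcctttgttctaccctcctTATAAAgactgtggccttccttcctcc
Gm8882: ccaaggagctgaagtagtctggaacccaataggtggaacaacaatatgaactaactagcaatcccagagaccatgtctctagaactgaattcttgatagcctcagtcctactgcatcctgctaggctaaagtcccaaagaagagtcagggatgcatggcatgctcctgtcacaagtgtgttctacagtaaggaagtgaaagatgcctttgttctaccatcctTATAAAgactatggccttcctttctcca

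Over the aligned bases, the Prb1 stretch was 99.1% identical to that of Gm4736, 98.2% to that of Gm8882 and 95.9% to that of Prpmp5. The stretch of Prh1, a salivary relative, was 70.6% identical to that of Prb1 but 58.9% to that of Gm4736. That of Prp2 was 61.3% identical to that of Prb1. Since the Prb1 and Gm4736 stretches are nearly the same, these lower values do not rank relatedness. TATAAA begins 50 bases before the RefSeq start in Prb1, 41 in Prpmp5 and 27 in Gm4736, each time on the sense strand. It occurs on that strand in 7.60% of 32817 mouse promoters of this length, and on either strand in 12.4%. These distances depend on the annotated starts, and the RefSeq start of Prpmp5 lies inside its GENCODE span. Searches on both strands for the antioxidant response core TGACNNNGC (in 10.2% of the promoters), the cyclic AMP response element TGACGTCA (1.55%), the xenobiotic response core GCGTG (28.1%), the OTX2 core TAATCC (6.25%) and the MITF core CATGTG (12.3%) found none of them in the 3 genes. These matches describe letters in a window, not factor binding.

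The transcripts are also alike, which bears on how reads could be assigned. The longest run that Prb1 and Gm4736 share exactly is 205 bases long, lies in the coding part of exon 3 of Prb1 (GRCm38 chr6:132208341-132208545, minus strand), and is shown because a short read from it fits both genes.
Prb1 and Gm4736 shared run: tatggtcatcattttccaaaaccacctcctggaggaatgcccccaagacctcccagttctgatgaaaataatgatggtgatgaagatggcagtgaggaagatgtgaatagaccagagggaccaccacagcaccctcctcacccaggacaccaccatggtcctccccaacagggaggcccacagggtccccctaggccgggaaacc

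Of the 50-base windows of the Gm4736 transcript, 62.8% also occur in that of Prb1 and 25.1% in that of Prpmp5. Prb1 shares 13.2% of its windows of this length with Gm4736 and 10.6% with Prpmp5, and Prpmp5 shares 12.2% of its own with Prb1 and 6.65% with Gm4736. With 150-base windows, 24.2% of those of Gm4736 occur in Prb1 and 3.80% of those of Prb1 in Gm4736, while those of Prpmp5 are shared with neither. With Gm8882, which had 0 counts in all 16 libraries, Prpmp5 shares 19.1% of its 50-base and 3.13% of its 150-base windows. The read length and the handling of reads that fit several places are not given in the sources used here, so the split of reads among the 3 genes, and the counts of Gm4736 above all, are uncertain.

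Library totals ranged from 21113549 to 35332444 counts, and genes with at least 1 count from 17904 to 24477, so that 3 counts, the floor below which a value is not told from 0, correspond to between 0.0864 and 0.144 CPM. CPM are counts divided by the TMM-scaled library size and multiplied by 1000000, and RPKM are CPM per kilobase of exon. Untreated wild-type replicate 3 and untreated knockout replicate 1 had the fewest detected genes. Sucnr1 itself had 29 counts in 8 wild-type libraries, 4 of them at 0, and 4 counts in 8 knockout libraries, 6 of them at 0, which is too few to check a library's genotype. All 12 RPE markers were detected, and their summed level was between 20641 and 32214 CPM. Other tissues were present too: the 12 rod photoreceptor markers summed to between 252 and 23354 CPM and the 4 corneal epithelium markers to between 1984 and 24118 CPM.

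Prb1, the most abundant of the 3, was a moderately expressed gene in every untreated library. Untreated wild-type libraries had 32.3, 17.2, 18.6 and 15.9 CPM, from 956, 438, 451 and 364 counts. Untreated knockout libraries had 22.7, 21.0, 9.81 and 6.81 CPM, from 474, 641, 304 and 182 counts. The untreated genotypes overlapped, and the lowest untreated library of all was a knockout. With hydroquinone, the wild-type libraries had 0.573, 0.663, 0.358 and 0.511 CPM, from 16, 23, 9 and 12 counts. The knockout libraries with hydroquinone had 0.198, 0.0848, 0.519 and 0.513 CPM, from 6, 2, 16 and 12 counts. Every hydroquinone library was thus far below every untreated library of either genotype, and 1 of the 8, knockout replicate 2, was under the floor.

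Prb1 averaged 21.0 ± 7.63 CPM in untreated wild type and 0.526 ± 0.128 CPM in exposed wild type (SD, n = 4 each). The fitted level was 39.3-fold lower with hydroquinone, a log2 fold change of -5.30 (SE 0.53). In the knockout the means were 15.1 ± 7.95 and 0.328 ± 0.221 CPM, and the fitted level was 45.1-fold lower (log2 fold change -5.49, SE 0.54). Prb1 had the lowest log2 fold change of all 15380 tested genes in both genotypes, which is how it came to be chosen. Because these are bulk libraries, fewer cells that make a transcript and less transcript per cell cannot be told apart.

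Prpmp5 followed the same pattern at a lower level. Untreated wild-type libraries had 8.55, 5.64, 6.09 and 4.58 CPM, from 253, 144, 148 and 105 counts. Untreated knockout libraries had 7.72, 7.27, 2.97 and 3.18 CPM, from 161, 222, 92 and 85 counts. As for Prb1, replicate 1 was the highest of its group in wild type, and knockout replicates 3 and 4 were the lowest untreated libraries. Wild-type libraries with hydroquinone had 0.430, 0.836, 0.398 and 0.468 CPM, from 12, 29, 10 and 11 counts. Knockout libraries with hydroquinone had 0.132, 0.0848, 0.0972 and 0.769 CPM, from 4, 2, 3 and 18 counts. No hydroquinone library reached the lowest untreated one, and 3 of the 4 knockout libraries with hydroquinone held 4 counts or fewer.

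Group means of Prpmp5 were 6.22 ± 1.68 CPM in untreated and 0.533 ± 0.204 CPM in exposed wild type, 11.5-fold lower in the fit (log2 fold change -3.52, SE 0.61). In the knockout they were 5.28 ± 2.56 and 0.271 ± 0.333 CPM, 19.7-fold lower (log2 fold change -4.30, SE 0.64). Knockout replicate 4 with hydroquinone sets much of that last mean, and without it the log2 fold change was -5.59. By log2 fold change Prpmp5 had rank 9 from the lowest in wild type and rank 2 in the knockout.

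Gm4736 was the least abundant gene. Untreated wild-type libraries had 29, 15, 57 and 10 counts (0.980, 0.588, 2.35 and 0.436 CPM), and untreated knockout libraries had 15, 9, 13 and 6 counts (0.719, 0.295, 0.420 and 0.225 CPM). With hydroquinone, wild-type libraries had 0, 3, 0 and 0 counts, and knockout libraries had 0, 0, 1 and 2 counts. All 8 untreated libraries were above the floor, no hydroquinone library was above it, and 5 of 8 were at 0.

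Summed over libraries, wild type held 111 counts of Gm4736 untreated and 3 with hydroquinone, a depth-scaled ratio of 40.2 with a 95% counting interval from 13.4 to 198. The knockout held 43 and 3 counts, a ratio of 14.2 with an interval from 4.55 to 71.7. These intervals cover counting error only, not the spread between libraries or mice, and this contrast chose the gene. Replicate 3, with 57 counts, supplied much of the wild-type sum, and without it the log2 ratio of mean CPM was -4.95. Gm4736 averaged less than 1 CPM over the 16 libraries and was therefore outside the tested genes. Under a looser filter of 17937 genes its hydroquinone log2 fold change was -5.20 (SE 1.04) in wild type. In the knockout it was -3.67 (SE 1.03). In that fit edgeR called Gm4736 in neither genotype, where it called 1 and 6 genes in all.

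**Figure D1:**
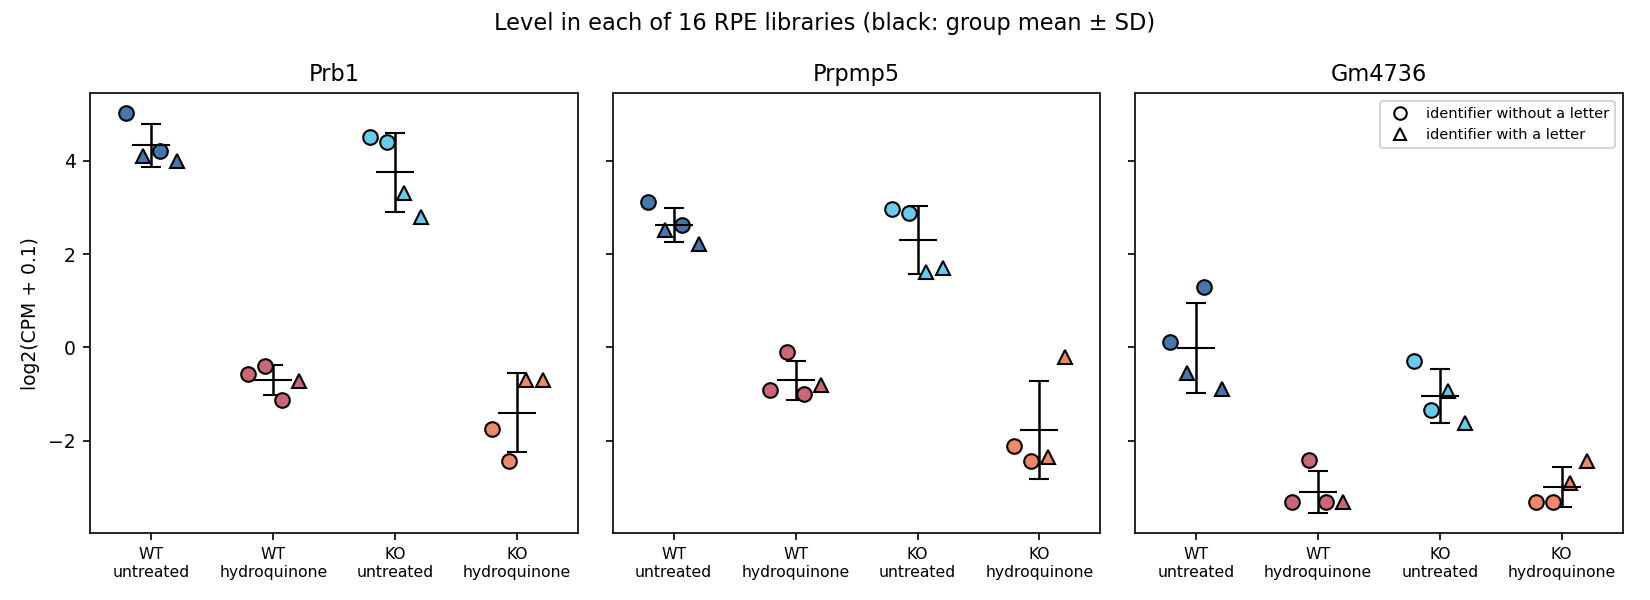
Level of Prb1, Prpmp5 and Gm4736 in each of the 16 libraries, as log2(CPM + 0.1), in 4 groups of 4. Each point is 1 library (circles for identifiers without a letter, triangles for those with one), and black lines are the group mean ± SD on that scale. For Prb1 the 8 untreated libraries lie between 6.81 and 32.3 CPM and the 8 hydroquinone libraries between 0.0848 and 0.663 CPM.

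As background, tested genes without overlap between treatments were counted. In wild type, 274 of the 15380 tested genes (1.78%) had every hydroquinone library below every untreated library, and in the knockout 112 genes (0.728%) did. Both tested members, Prb1 and Prpmp5, were among the 5 genes (0.0325%) that had this order in both genotypes. The others were Enpp2, which encodes the secreted enzyme autotaxin, 4933407K13Rik and Gm2011, and they are named after their values were seen. Among edgeR's calls at an adjusted p below 0.05, Prb1 was the 1 lower gene in wild type (0.00650% of those tested), and Prb1 and Prpmp5 were the 2 lower genes in the knockout (0.0130%), where 7 genes were called in either direction (0.0455%). The Prpmp5 call in the knockout was lost in 7 of 16 fits that left out 1 library: wild-type untreated replicate 2, wild-type hydroquinone replicate 4, knockout untreated replicates 1 and 2, and knockout hydroquinone replicates 1, 2 and 3. It was also lost in 6 of 11 other alternatives, among them the eyes of a mouse summed and the identifier form as a covariate. Because this contrast chose the genes, their order and their calls restate that choice, and the counts are given as a description.

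The label under which the genes were proposed calls them silenced, but reads remained. In sum the 8 hydroquinone libraries held 96 counts of Prb1, 89 of Prpmp5 and 6 of Gm4736, against 3810, 1210 and 154 in the 8 untreated libraries. Scaled to depth and exon length, Prb1 averaged 11.1 RPKM in untreated libraries, a level above 70.5% of the 15355 tested genes with a known length. With hydroquinone it averaged 0.264 RPKM. Prpmp5 averaged 4.43 RPKM untreated, above 44.0% of those genes, and 0.309 RPKM with hydroquinone. Both genes passed the filter of 1 CPM through their untreated libraries, so no rank among tested genes is given for the hydroquinone level.

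Genotype was a separate question, and it did not enter the choice of genes. In untreated mice Prb1 was at a log2 fold change of -0.48 (SE 0.43, 95% interval -1.38 to 0.43) in knockout against wild type, and the edgeR adjusted p was 1.00. For Prpmp5 that log2 fold change was -0.24 (SE 0.54, interval -1.39 to 0.91, edgeR adjusted p = 1.00). Neither difference exceeded the spread between libraries, and both intervals include lower and higher levels in the knockout. These intervals are over libraries, 4 from 2 wild-type mice and 4 from 3 knockout mice, not over mice. With the eyes of a mouse summed, the log2 fold changes were -0.56 for Prb1 and -0.29 for Prpmp5. Of 15380 genes, 0 (0%) were called in this contrast by edgeR, 203 had an unadjusted p below 0.05, and DESeq2 and limma called 0. Those 203 genes are a smaller share of all tested than the 0.05 expected if none differed.

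With hydroquinone, knockout against wild type gave a log2 fold change of -0.67 for Prb1 (SE 0.52, interval -1.79 to 0.44) and of -1.01 for Prpmp5 (SE 0.62, interval -2.33 to 0.30), each with an edgeR adjusted p of 1.00. Both were computed from at most 29 counts in a library. Without knockout replicate 4, Prpmp5 was at -2.30. Again 0 genes (0%) were called by edgeR, while DESeq2 called 3 and limma 0. In edgeR 643 had an unadjusted p below 0.05, also a smaller share than 0.05 of those tested.

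The interaction, the hydroquinone log2 fold change in knockout minus that in wild type, was -0.20 for Prb1 (SE 0.65, interval -1.59 to 1.19) and -0.78 for Prpmp5 (SE 0.81, interval -2.51 to 0.95). Both had an edgeR adjusted p of 1.00. The sign for Prb1 was not fixed: without knockout untreated replicate 1, knockout untreated replicate 2 or knockout hydroquinone replicate 2 it was 0.068, 0.0062 or 0.099. No gene (0%) was called by edgeR, DESeq2 or limma, and 296 had an unadjusted p below 0.05 in edgeR, again a smaller share than 0.05. For Gm4736, tested only under a looser filter of 17937 genes, knockout against wild type in untreated mice was -1.39 (SE 0.81, interval -3.12 to 0.34, edgeR adjusted p = 1.00).

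Ordered by mean level, untreated wild type came first, then untreated knockout, wild type with hydroquinone and knockout with hydroquinone, for Prb1 and Prpmp5. Neighbours of different genotype at one treatment overlapped in both genes. The gap between untreated knockout and exposed wild type had no overlap in either.

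The balance between Prb1 and Prpmp5 also differed with treatment. In untreated libraries there were 0.303 ± 0.0315 Prpmp5 counts per Prb1 count in wild type, from 0.265 to 0.329, and 0.364 ± 0.0714 in knockout, from 0.303 to 0.467 (SD, n = 4 each). With hydroquinone the ratio was 1.01 ± 0.223 in wild type, from 0.750 to 1.26, and 0.839 ± 0.553 in knockout, from 0.188 to 1.5. In 7 of 8 hydroquinone libraries the ratio was above that of every untreated library. Among them were knockout replicate 2, with 2 counts of each gene, under the floor, and knockout replicate 1, with 6 Prb1 and 4 Prpmp5 counts. In the remaining one, knockout replicate 3 with 16 Prb1 and 3 Prpmp5 counts, the ratio was below all untreated ones. Ratios from so few counts are uncertain. These ratios come from the same counts that chose the genes and are given without a test.

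Per kilobase of exon, there were 0.378 Prpmp5 reads per Prb1 read in untreated wild type and 1.26 in exposed wild type. In the knockout the values were 0.454 and 1.05. Between untreated genotypes, the log2 ratio was 0.33 higher in the knockout over 3 against 2 mice (exact permutation test, 2-sided p = 0.2, where the smallest p is 0.1). Gm4736 stood at 0.0502 counts per Prb1 count in untreated wild type and 0.0269 in untreated knockout, and the wild-type value rested in part on replicate 3 at 0.126.

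**Figure D2:**
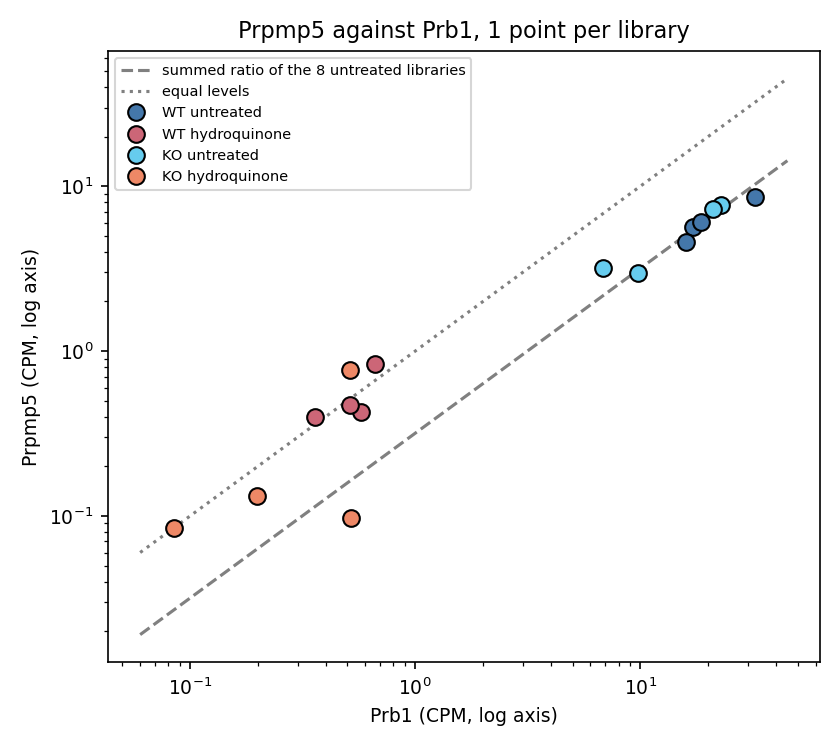
Prpmp5 against Prb1 in CPM on log axes, 1 point per library coloured by group, with a dashed line at the summed ratio of the 8 untreated libraries and a dotted line at equal levels. Untreated libraries lie along the dashed line (ratios from 0.265 to 0.467), and 7 of 8 hydroquinone libraries lie above it, near the dotted line. Hydroquinone points rest on 2 to 23 counts of Prb1 and 2 to 29 of Prpmp5.

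Within the untreated libraries the levels of Prb1 and Prpmp5 varied together, and Gm4736 followed them less closely. Over the 16 libraries, Pearson's r of log2(CPM + 1) between Prb1 and Prpmp5 was 0.988, which mainly reflects the treatment gap. Over the 8 untreated libraries it was 0.951, and over the 8 exposed libraries 0.710. For Gm4736 it was 0.457 with Prb1 and 0.420 with Prpmp5 over the 8 untreated libraries. Library points share mice and, for such similar transcripts, possibly reads, so these are descriptions.

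The variation among untreated libraries went with the form of the library identifier, which comes with or without a letter in the labels and whose meaning is not given there. The 4 untreated libraries without a letter had between 18.6 and 32.3 CPM of Prb1, and the 4 with a letter between 6.81 and 17.2 CPM, with no overlap. Prpmp5 had between 6.09 and 8.55 CPM without a letter and between 2.97 and 5.64 CPM with one. Each form held 2 libraries of each untreated genotype. In these untreated libraries rod markers summed to between 347 and 1688 CPM without and between 3993 and 23354 CPM with a letter. That order did not hold among hydroquinone libraries, at 332 to 21139 CPM without (n = 5) and 252 to 510 CPM with a letter (n = 3). The part of rods in the levels of Prb1 and Prpmp5 was not tested.

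In the 3 untreated mice that gave both eyes, the eye without a letter had the higher level of all 3 genes. For Prb1 and Prpmp5 this follows from the lack of overlap above, in the same libraries. Gm4736 overlapped between the forms (0.295 to 2.35 CPM without and 0.225 to 0.588 CPM with a letter), so only its order could have differed. The ratio between the eyes of a mouse was 2.32, 1.17 and 1.88 for Prb1 and 2.60, 1.33 and 1.52 for Prpmp5. For Gm4736 it was 1.71, 5.38 and 1.67. Among hydroquinone libraries the form did not separate Prb1: 5 without a letter had between 0.0848 and 0.663 CPM and 3 with a letter between 0.511 and 0.519 CPM. In the knockout the hydroquinone log2 fold change of Prb1 was -7.22 in libraries without a letter alone and -4.00 in those with one. With a letter alone edgeR no longer called Prb1 in either genotype, and exposed wild type then held 1 library.

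Almost no other gene of the locus was detected. Of 42 annotated genes with a start within 500 kb, 20 are protein-coding and 18 pseudogenes, 38 had 0 counts in all 16 libraries, and Prb1, Prpmp5 and Gm4736 were the 3 with at least 10 counts. The remaining gene, Gm5154, had 4 counts, all in untreated libraries. The 15 bitter taste receptor genes (Tas2r) in that window had 0 counts. Of 12 other proline-rich protein genes listed for comparison, 10 were in the table and 9 had 0 counts in all libraries, among them Prh1, Prp2, Smr2 and Smr3a. The tenth, Prol1, had 1 count, in untreated wild-type replicate 4. None of the list was abundant enough to be tested.

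Markers of the glands that make these proteins were checked next. Of 15 salivary and lacrimal acinar markers, the secreted proteins Dcpp2, Dcpp3 and Obp1b had 0 counts in all libraries, Pip had 2, Dcpp1 6 and Klk1 10. The highest of the list was Aqp5, a water channel that other epithelia of the eye also express, at a mean of 392 CPM. Car6, a secreted carbonic anhydrase, and Amy1, salivary amylase, were present in every library at means of 17.7 and 16.1 CPM. Bhlha15 (832 counts in all), Spdef (354), Lpo (296) and Bpifa2 (227) were also detected. The list summed to between 170 and 660 CPM in untreated wild type and between 91.2 and 1509 CPM in exposed wild type. Most of this sum is Aqp5, so it is not a level of gland tissue. Its highest values, 1161 and 1509 CPM in exposed wild-type replicates 1 and 2, came with the highest corneal sums, 19246 and 24118 CPM. In knockout the ranges were 251 to 404 and 97.4 to 446 CPM. All ranges of exposed and untreated groups overlapped, and edgeR called 0 of the 4 tested genes in either hydroquinone contrast, where it called 0.00650% and 0.0455% of all tested genes in wild type and knockout. At such shares a count of 0 says nothing about this list or those that follow. The part of gland tissue in the levels of Prb1 was not tested.

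The edgeR test called 0 genes of the other marker lists in either hydroquinone contrast, beside the same 0.00650% and 0.0455% of all genes: 12 RPE genes, 12 rod genes, 4 conjunctival and 4 corneal genes, 4 endothelial, 6 macrophage, 4 oligodendrocyte, 6 skeletal muscle, 3 Harderian or meibomian gland and 2 lens genes were tested. Median log2 fold changes of the RPE list were 0.02 in wild type and 0.00 in knockout, beside a median over all tested genes of 0.00 in both. Lower medians were those of oligodendrocyte (-3.14 in wild type and -0.56 in knockout), lens (-1.04 and -1.28), rod (-0.82 and -0.32), skeletal muscle (-0.55 and -0.17), conjunctival (-0.37 and -0.19) and Harderian or meibomian markers (-0.995 and -0.017). Corneal markers had 0.81 and -0.23, salivary and lacrimal markers 0.62 and -0.05, and endothelial markers 0.05 and 0.22. The ranges of the summed levels overlapped between treatments in every list. The part of these tissues in the Prb1 difference was not tested.

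**Figure D3:**
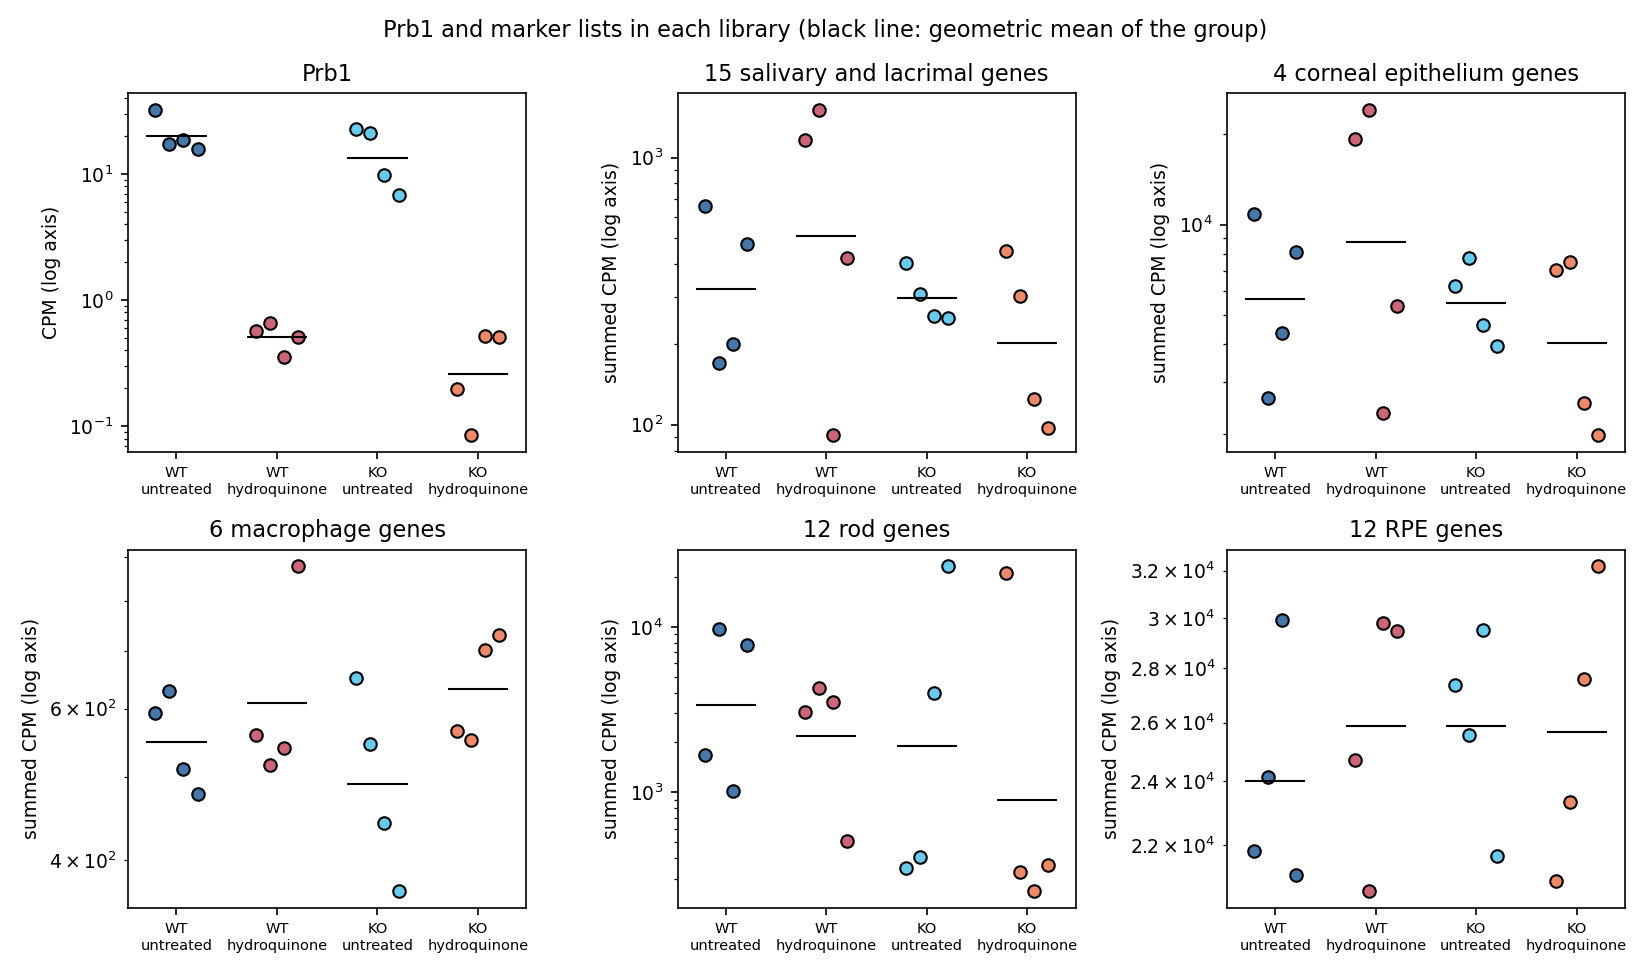
Prb1 in CPM and the summed CPM of the salivary and lacrimal, corneal, macrophage, rod and RPE marker lists in each library, by group, on log axes that differ between panels and do not start at 0. Points are libraries and black lines geometric means of 4. Most of the salivary and lacrimal sum is Aqp5. The groups overlap in every list panel, for example 21114 to 29898 CPM untreated and 20641 to 29794 CPM with hydroquinone for RPE markers in wild type, and do not overlap between treatments for Prb1.

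Of the marker lists, that of macrophages had the highest correlation with Prb1 within untreated libraries. The sum of 6 macrophage genes had r = 0.860 with Prb1 over the 8 untreated libraries, where libraries without a letter had between 510 and 650 CPM and those with one between 368 and 629 CPM. Rod markers had r = -0.692. With hydroquinone, where Prb1 was low, the macrophage sum was between 516 and 879 CPM in wild type and between 551 and 730 CPM in knockout, against 477 to 629 and 368 to 650 CPM untreated. Its median log2 fold change was 0.18 in wild type and 0.43 in knockout, and 0 of 6 genes were called, beside 0.00650% and 0.0455% of all tested genes. The part of macrophages in the levels of Prb1 was not tested.

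Genes with levels like those of Prb1 were sought by correlation. Over the 8 untreated libraries the 5 highest r among 15378 other genes belonged to the pseudogene Tpt1-ps3 (0.989), Slamf8 (0.978), Gbp5 (0.974), Klf6 (0.971) and Cmtm3 (0.965). Slamf8 is a receptor of myeloid cells and Gbp5 an interferon-induced GTPase. All 5 were above the r of 0.951 between Prb1 and Prpmp5, and the lowest r, that of Pja1, was -0.990. Whether such values exceed those that a search over 15378 genes and 8 libraries gives by chance was not tested. For Prpmp5 the 4 highest were Hk3, Arl11, Il10ra and Tnfrsf14 (r between 0.966 and 0.982), of which Il10ra is a chain of the interleukin-10 receptor, and this second set was added after values were seen. None of these genes was called with hydroquinone by edgeR, and the log2 fold change of Slamf8 was 0.11 in wild type and 0.42 in knockout.

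Over all 16 libraries the most similar genes were Enho (r = 0.792), Angptl4 (0.785), Pgrmc2 (0.779), Gt(ROSA)26Sor (0.778) and Ccdc13 (0.770). Their log2 fold changes were small beside that of Prb1, for instance -0.59 in wild type and -0.52 in knockout for Enho, and none was called. The most opposite genes, named after their values were seen, were Srxn1 (r = -0.916), Osgin1 (-0.906) and Gclc (-0.902), which belong to the oxidative stress response. In the knockout they rose with hydroquinone by log2 fold changes of 0.77, 1.39 and 0.74 (edgeR adjusted p = 0.0081, 0.0022 and 0.034). In wild type their log2 fold changes were 0.53, 1.05 and 0.72 and did not pass the threshold (edgeR adjusted p = 0.27, 0.060 and 0.11). Because these correlations span the treatment gap, they restate which genes differ with hydroquinone.

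The cyclic AMP pathway that drives proline-rich protein genes in salivary glands was listed as 10 genes, all of them tested. The edgeR test called 0 of 10 in either hydroquinone contrast, with medians of -0.03 in wild type and 0.00 in knockout. Its most abundant members were Gnas, the stimulatory G protein subunit, and Prkar1a, a regulatory subunit of protein kinase A. The share called over all tested genes was 0.00650% and 0.0455%, so the count of 0 is not a result about the pathway, whose activity was not measured.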

How the data were processed

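The authors deposited whole-number read counts per Ensembl gene in 1 table of 51912 genes and 16 libraries. The file is named for FPKM, but 100% of its values are whole and library totals differ, so they were used as counts. The submitters' processing notes name STAR, Cufflinks, DESeq2 and the build mm10, without roles. The counting tool, strand setting and treatment of multiply mapping reads are not given in the sources used here. GENCODE vM21 (GRCm38) matched 51633 identifiers, and RefSeq (GRCm38.p6) gave the sequences.

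Groups came from the sample titles. Counts were fitted in edgeR 4.0.16 (R 4.3.3) with TMM scaling, in 1 model of 4 group means, and contrasts were tested by quasi-likelihood. Tests covered 15380 genes whose mean over libraries reached 1 CPM and which held 99.8% of counts, with Benjamini-Hochberg adjustment and a threshold of 0.05. CPM and RPKM were computed from TMM-scaled library sizes. Standard errors were derived from the F statistic. Eyes of a mouse entered as separate libraries. The consensus correlation between them was -0.020 (limma 3.58.1). Where libraries share a mouse, p-values partly measure the spread between its eyes. Pairs of libraries in a group had a chi-square per degree of freedom of at least 20.3, so none was a copy. The script was tested on simulated data. Alternatives were DESeq2 1.42.0 and its size factors, other filters, limma with a mouse block, eyes summed, the identifier form as covariate or alone, and each library left out. After seeing the data, the 2 libraries with the fewest genes, and the 2 with the highest rod level, were also left out.

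The genes and lists were chosen with earlier results of these data known. Genes named are Prb1, Prpmp5 and Gm4736, neighbours within 500 kb with at least 10 counts, the 5 genes with the highest r with Prb1 over 16 and over 8 untreated libraries, called list genes, and the 2 most abundant of a list. Promoters were aligned with Biopython 1.88. One value that these rules gave is not reported here.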

Additional observations from a re-analysis of the deposited data

Results flagged for a closer look

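In 4 of 16 sets of 4 libraries, the highest library stood apart from the others by more than Dixon's 95% critical value for the gap divided by the range. About 1 in 20 sets of normal, independent values is flagged by chance. These sets share libraries and include very low counts, so 4 of 16 cannot be weighed against that share. For Prb1 in untreated wild type it was replicate 1 at 32.3 CPM (gap share 0.836). For Prpmp5 it was replicate 2 of wild type with hydroquinone at 0.836 CPM (0.839) and replicate 4 of knockout with hydroquinone at 0.769 CPM (0.931). For Gm4736 it was replicate 2 of wild type with hydroquinone at 0.0864 CPM (1), where the other 3 libraries had 0 counts. With those at 0, any count in the remaining library gives a gap share of 1. The 3 hydroquinone values rest on 29, 18 and 3 counts.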

How the results depend on the processing

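The hydroquinone log2 fold changes of Prb1 and Prpmp5 stayed negative under every alternative listed. No alternative brought a genotype or interaction contrast of either gene past the threshold (adjusted p from 0.551 to 1 over the alternatives). limma with a mouse block, on the compressed log2(CPM + 1) scale, gave -3.80 and -2.22 (Prb1 and Prpmp5) in wild type, -3.46 and -2.24 in knockout, and a Prb1 interaction of 0.33. With identifiers without a letter alone, knockout values were -7.22 and -6.07, and the untreated genotype difference of Prpmp5 was 0.034. With a letter alone, knockout values were -4.00 and -2.87, the genotype difference of Prb1 with hydroquinone was 0.014, the interactions were 1.00 and 0.56, and Gm4736 had -2.45 for hydroquinone in knockout and -0.67 for genotype in untreated mice. Without the 2 libraries with the fewest detected genes, the Prb1 interaction was 0.105 and Gm4736 had -4.95 in wild type. Leaving out 1 library at a time gave -5.59 to -4.02 for Prpmp5 in knockout, -0.54 to 0.099 for the Prb1 interaction, -5.92 to -4.95 for Gm4736 in wild type, -5.26 to -3.40 in knockout and -1.80 to -0.69 for its genotype difference. Without wild-type untreated replicate 3, Gm4736 was at -4.95 (hydroquinone) and -0.69 (genotype).

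The number of genes called for hydroquinone was 1 in wild type and 7 in knockout. It was 2 in wild type with DESeq2 size factors and with the form covariate, 3 with the mouse block and without the 2 highest rod libraries, 0 with a letter alone, and 1 to 3 without 1 library. DESeq2 called 20 and 14. In knockout it was 3 with eyes summed, 4 with the form covariate and without the 2 fewest-gene libraries, 1 and 0 without and with a letter alone, and 3 to 11 without 1 library. DESeq2 called 3 genes for genotype with hydroquinone. The cause of these changes was not tested. No contrast could be paired, because both eyes of a mouse were always in the same group. Replicate numbers follow accession order and pair no libraries either. Counts of 0 to 29 limit all hydroquinone values.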
